A study of Mus musculus with 12 samples.

Results

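The core kinases of the Hippo pathway and the scaffold proteins that act on them were followed at the transcript level in mouse embryonic stem cells (ESCs) in which the amount of YAP, the coactivator they restrain, was lowered or raised. The group was set by name and holds 10 genes: the LATS kinases Lats1 and Lats2, the MST kinases Stk3 and Stk4, the adaptor Sav1, the LATS cofactors Mob1a and Mob1b, and the upstream scaffolds Nf2, Wwc1 and Wwc2. All 10 were found by symbol among the 24480 genes measured, and all 10 passed the filter on low counts in both experiments. The question was whether the level of YAP feeds back on the transcripts of its own inhibitory pathway.

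Total RNA was sequenced from the E14Tg2a line, an established feeder-free ESC line grown on gelatin with serum and leukemia inhibitory factor. In the knockdown experiment, transient transfection delivered Stealth siRNAs that target mouse Yap1, as a mix (YAP KD), or scrambled siRNAs (CTR KD). In the overexpression experiment it delivered a plasmid with the mouse YAP coding sequence behind the CAG promoter (YAP OE) or a control plasmid (CTR OE). Per the labels this control encodes GFP, whereas the study's text describes an empty vector. Each of the 4 groups had 3 libraries, the labels tie these to independent experiments, and the 2 experiments shared no library. Transfected and untransfected cells were not separated, so each value is a mean over the whole culture. In such bulk samples, fewer cells that express a gene and less RNA per cell cannot be told apart. Reads from the YAP plasmid were counted together with those of endogenous Yap1.

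In the Hippo pathway the MST kinases, MST2 from Stk3 and MST1 from Stk4, bind the adaptor SAV1 and phosphorylate the LATS kinases and their MOB1 cofactors. Active LATS then phosphorylates YAP, which keeps it out of the nucleus or sends it to degradation. Merlin, the product of Nf2, and the WWC proteins, of which WWC1 is also called KIBRA, gather these kinases at the cell cortex. YAP that reaches the nucleus binds DNA through TEAD factors, and Lats2 is known in other cells as a target of YAP, which closes a negative feedback loop.

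Libraries held from 42900000 to 57200000 expected counts. The targeted gene followed its label: Yap1 was left at 45.3% of the control level in YAP KD (a log2 change of -1.14, SE 0.0568, edgeR adjusted p = 4.36e-05) and reached 195.4% in YAP OE (0.97, SE 0.0470, edgeR adjusted p = 3.47e-08). All 10 ESC marker genes, among them Pou5f1 and Nanog, were detected, with a summed level, in TMM-normalized counts scaled to library size (CPM), of 6251 to 6818 over the 12 libraries, and 7 fibroblast markers summed to 1.89 to 3.18 CPM. The sum over 8 trophoblast markers differed between groups, from 115.1 to 127.3 CPM in CTR KD, 152.9 to 161.9 in YAP KD, 147.5 to 160.8 in CTR OE and 167.9 to 199.3 in YAP OE. The sum was higher than in the controls with YAP lowered and with YAP raised, through members that were only partly the same. In YAP KD Tfap2c rose from 57.5 to 79.5 CPM and Krt8 from 34.4 to 44.3 CPM (edgeR adjusted p = 0.00217 and 0.00444). In YAP OE Krt8 rose from 54.7 to 70.3 CPM and Krt18 from 43.7 to 63.1 CPM (edgeR adjusted p = 0.00224 and 0.00101), while Tfap2c stood at 53.3 and 47.7 CPM (edgeR adjusted p = 0.0935). The transcription factors Cdx2 and Gata3 were low but rose in YAP OE, from 0.149 to 0.628 CPM and from 0.285 to 1.04 CPM (edgeR adjusted p = 0.00159 and 0.000886). Eomes, at 1.26 CPM in CTR OE and 1.86 in YAP OE, and Hand1, at 0.165 and 0.377, did not pass (edgeR adjusted p = 0.0949 and 0.136). Elf5 was lower in YAP OE, at 0.0769 and 0.0660 CPM, and was too low to be tested. The sum over 8 primitive endoderm markers was 137.3 to 154.0 CPM in CTR KD, 127.7 to 143.3 in YAP KD, 150.5 to 155.2 in CTR OE and 159.0 to 165.3 in YAP OE. The overexpression groups did not overlap. Most of this sum was Lamb1, with means of 145.3 CPM in CTR OE and 154.1 CPM in YAP OE (edgeR adjusted p = 0.331). Dab2 alone passed there, from 2.66 to 4.11 CPM (edgeR adjusted p = 0.00645). Without a call, the means of Gata4, Sox17 and Sox7 were lower in YAP OE than in CTR OE, and those of Gata6, Foxa2 and Pdgfra were higher. The part of these cell states in the results that follow was not tested.

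The promoters of the scaffold pair Wwc2 and Wwc1 are shown because that of Wwc2 held the most matches to the TEAD recognition core among the 10 genes and that of its paralog held none, and because Wwc2 passed the test in both experiments while Wwc1 passed in neither. Each line gives the 250 bases before the annotated start in RefSeq, build GRCm38.p6 (the assembly of mm10), 5′ to 3′ on the strand of the gene. Capitals mark GGAATG or its reverse complement CATTCC. Both lie on the minus strand, that of Wwc2 at chr8:47990545-47990794 and that of Wwc1 at chr11:35980528-35980777.
Wwc2: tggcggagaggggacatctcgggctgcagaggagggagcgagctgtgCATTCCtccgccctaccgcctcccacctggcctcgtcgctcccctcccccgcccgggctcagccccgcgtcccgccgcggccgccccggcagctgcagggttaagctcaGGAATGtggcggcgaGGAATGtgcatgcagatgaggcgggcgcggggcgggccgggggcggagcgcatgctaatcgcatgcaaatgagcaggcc
Wwc1: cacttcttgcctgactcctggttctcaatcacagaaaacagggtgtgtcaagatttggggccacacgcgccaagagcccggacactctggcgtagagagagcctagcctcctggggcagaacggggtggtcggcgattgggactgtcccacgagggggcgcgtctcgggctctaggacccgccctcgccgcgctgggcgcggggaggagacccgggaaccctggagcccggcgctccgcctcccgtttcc

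The core was searched on both strands in RefSeq windows of 300 bases, which run from 250 before to 50 after a start. The window of Wwc2 held 3 cores, whose first bases lie at positions -203, -94 and -79 from the start, and that of Wwc1 held 0. Sav1, Mob1a and Lats2 held 1 each, and in Lats2 it lay after the start. The windows of Lats1, Stk4, Mob1b and Nf2 held 0, and Stk3 had no entry. Of 32851 windows over all genes, 14.7% held at least 1 core and 0.131% held at least 3. These matches describe sequence, and whether they bear on the response to YAP was not tested. The pair was chosen with its test results known. In YAP OE the log2 fold changes of Wwc1 and Wwc2 were 0.16 and 0.23, and their ratio overlapped with that of the controls. Sav1 and Mob1a, with 1 core each, passed in neither experiment. YAP binding, which the study also measured by ChIP-Seq, was not analysed here.

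Levels can be set side by side between genes once they are divided by effective length. On the scale of CPM per kilobase, Nf2 was the most abundant of the 10 in each of the 4 groups, with group means from 62.9 to 66.8, followed by Mob1a (28.5 to 30.1) and Stk4 (22.7 to 23.0). At the lower end stood Lats1 (3.18 to 3.31), Mob1b (2.01 to 2.37) and Lats2 (0.765 to 1.59), so that both LATS kinases were scarce beside the scaffold Nf2. None of these 6 overlapped with its neighbour in the order. The middle of the order was held by Wwc2, Sav1, Wwc1 and Stk3, by falling group mean, in CTR KD, CTR OE and YAP OE alike, and differed from this in YAP KD. In CTR KD, Wwc2 at 9.95 and Sav1 at 9.82 overlapped, as did Wwc1 at 7.98 and Stk3 at 7.49. In YAP KD, Wwc2 at 7.23 was the lowest of these 4, although its libraries overlapped with those of Wwc1 and these with those of Stk3. In CTR OE, Wwc2 at 10.05 CPM per kilobase already led these 4 without overlap, and it did so in YAP OE at 11.8, so the order did not change when YAP was raised.

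**Figure D1:**
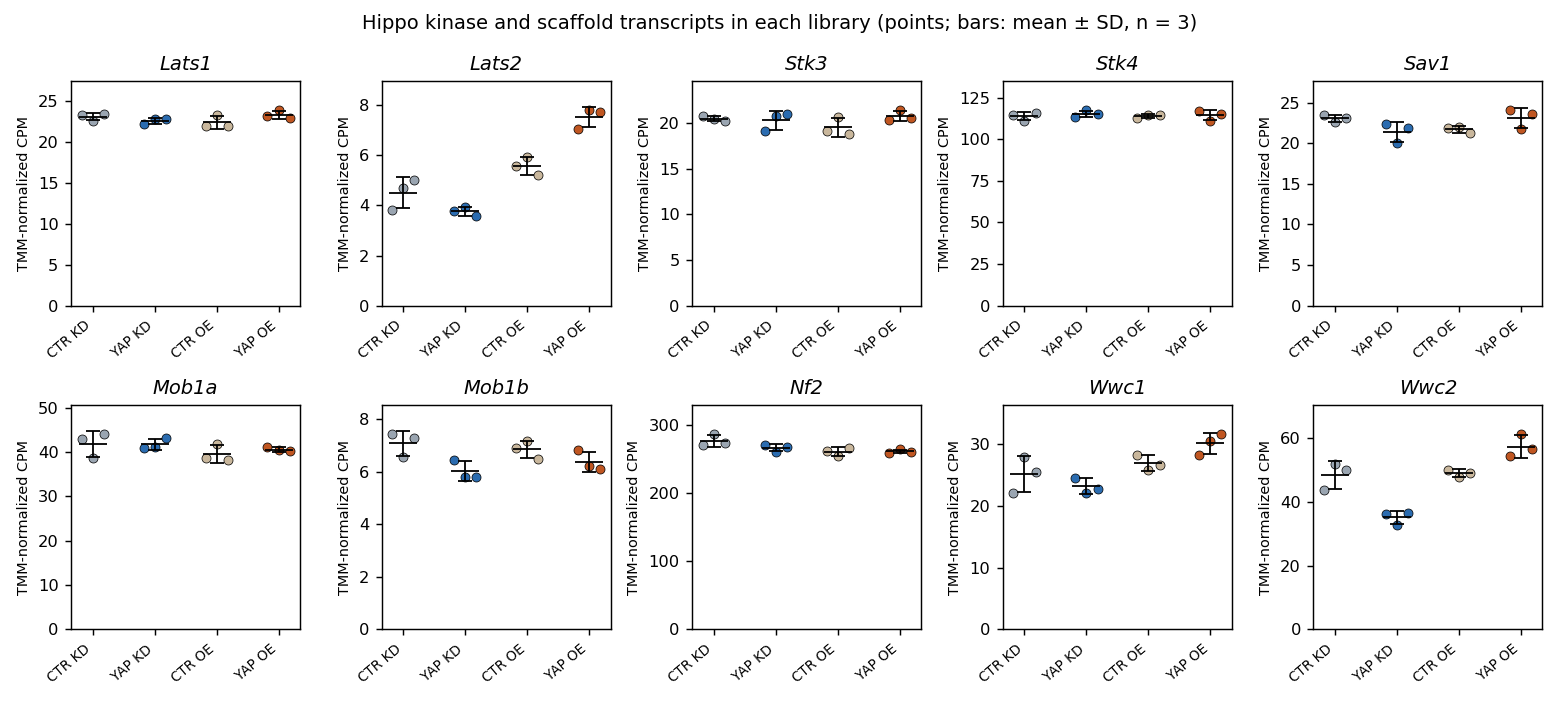
Expression of the 10 Hippo kinase and scaffold genes in TMM-normalized CPM (y axis, linear and from 0) in CTR KD, YAP KD, CTR OE and YAP OE (x axis); each point is a library and bars are the mean ± SD of 3 libraries. Wwc2 lay below its controls in YAP KD and above them in YAP OE, Lats2 lay above its controls in YAP OE, and Lats1, Stk3, Stk4, Mob1a and Nf2 overlapped with their controls in both experiments.

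At an edgeR adjusted p under 0.05, 1 gene of the 10 was called lower in YAP KD, the scaffold gene Wwc2. Wwc2 and the kinase gene Lats2 were called higher in YAP OE. In YAP KD 1 of 10 fell and 0 rose, where 2.78% of the 14606 genes tested fell, 2.71% rose and 5.49% changed in either direction. In YAP OE 2 of 10 rose and 0 fell, where 1.66% of the 14804 genes tested rose, 0.473% fell and 2.13% changed in either direction. At an unadjusted p under 0.05, 3 of 10 stood in each experiment, against 19.6% of all genes in YAP KD and 13.1% in YAP OE. The sign of the log2 fold change was negative for 9 of 10 in YAP KD, with Stk4 as the exception, and positive for 9 of 10 in YAP OE, with Mob1b as the exception. Sign counts over all genes were 7035 negative of 14606 and 7206 positive of 14804. The median log2 fold change of the 10 was -0.078 in YAP KD (0.0058 over all genes) and 0.073 in YAP OE (-0.0025 over all genes). Without regard to sign, the median was 0.078 in YAP KD (0.085 over all genes) and 0.091 in YAP OE (0.064 over all genes).

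**Figure D2:**
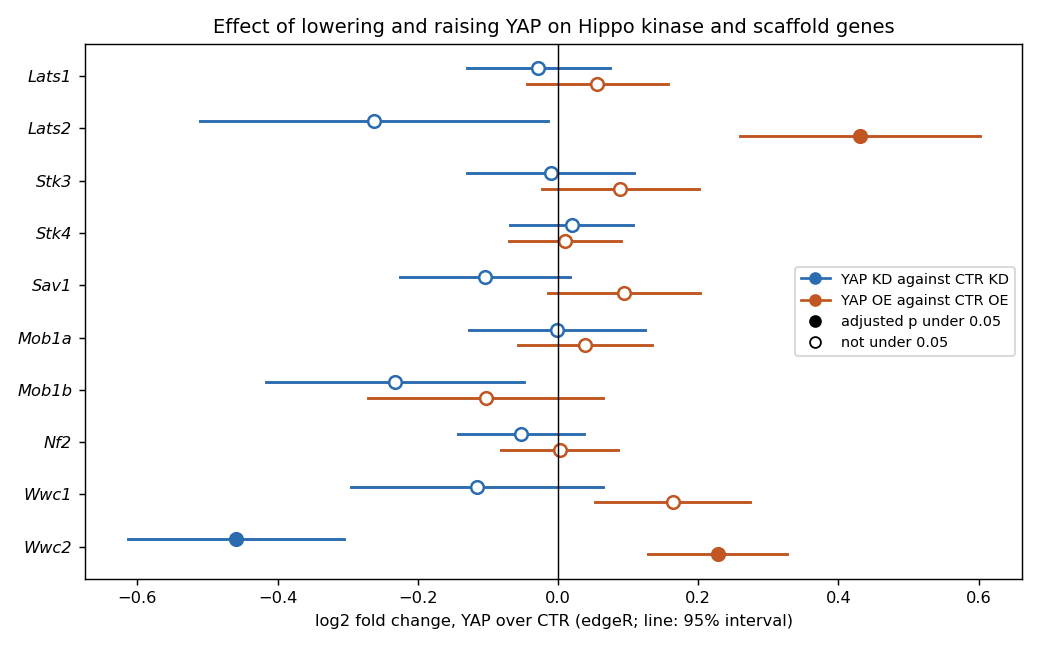
Log2 fold change of YAP over CTR (x axis) for each of the 10 genes (y axis), with YAP KD in blue and YAP OE in orange; lines are 95% intervals and filled points passed the edgeR test at an adjusted p under 0.05. The filled points are Wwc2 in YAP KD at -0.46 and in YAP OE at 0.23, and Lats2 in YAP OE at 0.43.

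Of the LATS kinases, which place the inhibitory phosphate on YAP, Lats2 was called in YAP OE and Lats1 in neither experiment. Lats2, on chromosome 14 of mm10 (57689662 to 57746212), was counted at 3.82, 4.68 and 5.003 CPM in the CTR KD libraries and at 3.77, 3.91 and 3.58 CPM in the YAP KD libraries. Its values were 5.58, 5.93 and 5.21 CPM in CTR OE and 7.05, 7.78 and 7.70 CPM in YAP OE. All YAP OE libraries stood above all CTR OE libraries, whereas CTR KD replicate 1 fell within the range of YAP KD. Lats2 rose to 134.8% of the control level in YAP OE (log2 fold change 0.43, SE 0.0803, 95% interval 0.26 to 0.60, edgeR adjusted p = 0.00902). Without CTR OE replicate 3 the value was 0.38 and the call was lost (edgeR adjusted p = 0.0702).

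In YAP KD the log2 fold change of Lats2 was -0.26 (SE 0.111, 95% interval -0.51 to -0.015, edgeR adjusted p = 0.223), which did not pass the test. Leaving out single libraries moved it between -0.37 and -0.18. The gene was thinly covered, with 159 to 432 expected counts per library, and the interval of the knockdown still includes a decrease larger than the rise in YAP OE. Among all genes tested, 15.3% had a larger absolute log2 fold change than Lats2 in YAP KD and 4.36% in YAP OE. The 2 controls also differed for this gene by 0.31 on the log2 scale, CTR OE over CTR KD, which was the largest such gap among the 10 (the others lay from -0.087 to 0.10). Transfection type and experiment cannot be told apart in that gap.

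Lats1, on chromosome 10, gave 934 to 1282 expected counts per library and differed little between groups. Mean levels over 3 libraries, with their SD, were 23.1 ± 0.443 (CTR KD), 22.6 ± 0.367 (YAP KD), 22.4 ± 0.782 (CTR OE) and 23.3 ± 0.513 CPM (YAP OE). The log2 fold changes were -0.03 (95% interval -0.13 to 0.07) and 0.06 (-0.045 to 0.16), and neither passed the edgeR test (adjusted p = 0.801 and 0.689). The groups overlapped in both experiments.

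The MST kinases and Sav1 form the first step of the cascade, and none of the 3 passed the test. Stk4 had 4782 to 6467 expected counts per library and the narrowest intervals of the 10: its log2 fold change was 0.02 in YAP KD (95% interval -0.069 to 0.11) and 0.01 in YAP OE (-0.070 to 0.089), with edgeR adjusted p = 0.850 and 0.958. Its group means ran from 113.8 to 115.3 CPM. For Stk3 the log2 fold changes were -0.01 in YAP KD (-0.13 to 0.11) and 0.09 in YAP OE (-0.023 to 0.20), with edgeR adjusted p = 0.945 and 0.513. Changes beyond these bounds were therefore outside the 95% intervals for both MST kinases.

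Sav1, the adaptor that holds MST to LATS, was counted at 23.5, 22.6 and 23.1 CPM in CTR KD and at 22.3, 20.0 and 21.9 CPM in YAP KD. The YAP KD libraries lay below all controls, but by a log2 fold change of only -0.10 (SE 0.0540, edgeR adjusted p = 0.334). In CTR OE the values were 21.9, 22.1 and 21.2 CPM and in YAP OE 24.0, 21.7 and 23.6 CPM, which overlapped (log2 fold change 0.09, edgeR adjusted p = 0.468). Its signs matched those of Wwc2 in both experiments, without a call in either.

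The MOB1 proteins bind LATS and permit its activation. Mob1b was read at 7.44, 6.55 and 7.29 CPM in CTR KD and at 6.46, 5.80 and 5.82 CPM in YAP KD. All YAP KD libraries were below the controls, and the log2 fold change of -0.23 (SE 0.0821, 95% interval -0.42 to -0.05) did not pass after adjustment (edgeR adjusted p = 0.148). In the overexpression its values were 6.91, 7.16 and 6.50 CPM in CTR OE and 6.81, 6.22 and 6.09 CPM in YAP OE. These groups overlapped, and Mob1b was the member with a negative sign there, at -0.10 (edgeR adjusted p = 0.648). Mob1a, by far the more abundant of the pair, had log2 fold changes of -0.001 and 0.04 (edgeR adjusted p = 0.995 and 0.795).

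Among the scaffolds, Wwc2 was the member with a call in both experiments. The study's discussion already lists Wwc2, with Cyr61 and others, as a well-known direct target of YAP that was deregulated in its data. Wwc2 spans 47826082 to 47990544 of chromosome 8. Its levels were 43.5, 51.9 and 49.9 CPM in CTR KD and 36.3, 32.8 and 36.4 CPM in YAP KD. In the other experiment they were 49.98, 47.6 and 49.1 CPM in CTR OE and 54.2, 61.2 and 56.5 CPM in YAP OE. Every YAP KD library was below every control, and every YAP OE library was above every control. Wwc2 fell to 72.7% of the control level in YAP KD (log2 fold change -0.46, SE 0.0691, 95% interval -0.61 to -0.30, edgeR adjusted p = 0.00587). It rose to 117.1% in YAP OE (0.23, SE 0.0464, 95% interval 0.13 to 0.33, edgeR adjusted p = 0.0160).

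The knockdown call of Wwc2 held when any of the 6 libraries was left out, with log2 fold changes from -0.54 to -0.41. The overexpression call was lost without CTR OE replicate 2 (0.21, edgeR adjusted p = 0.0890) and without CTR OE replicate 3 (0.23, edgeR adjusted p = 0.0761). For scale, the canonical YAP target Ctgf had log2 fold changes of -0.71 and 0.31, Amotl2, which encodes a junctional binder of YAP, had -0.74 and 0.35, and Cyr61, a secreted target, had -0.03 and 0.995. The values of Wwc2 were smaller than those of Ctgf and Amotl2 in each experiment, a difference that was not tested. Of all genes tested, 5.41% had a larger absolute log2 fold change than Wwc2 in YAP KD and 13.2% in YAP OE. The median absolute value among called genes was 0.341 and 0.343.

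**Figure D3:**
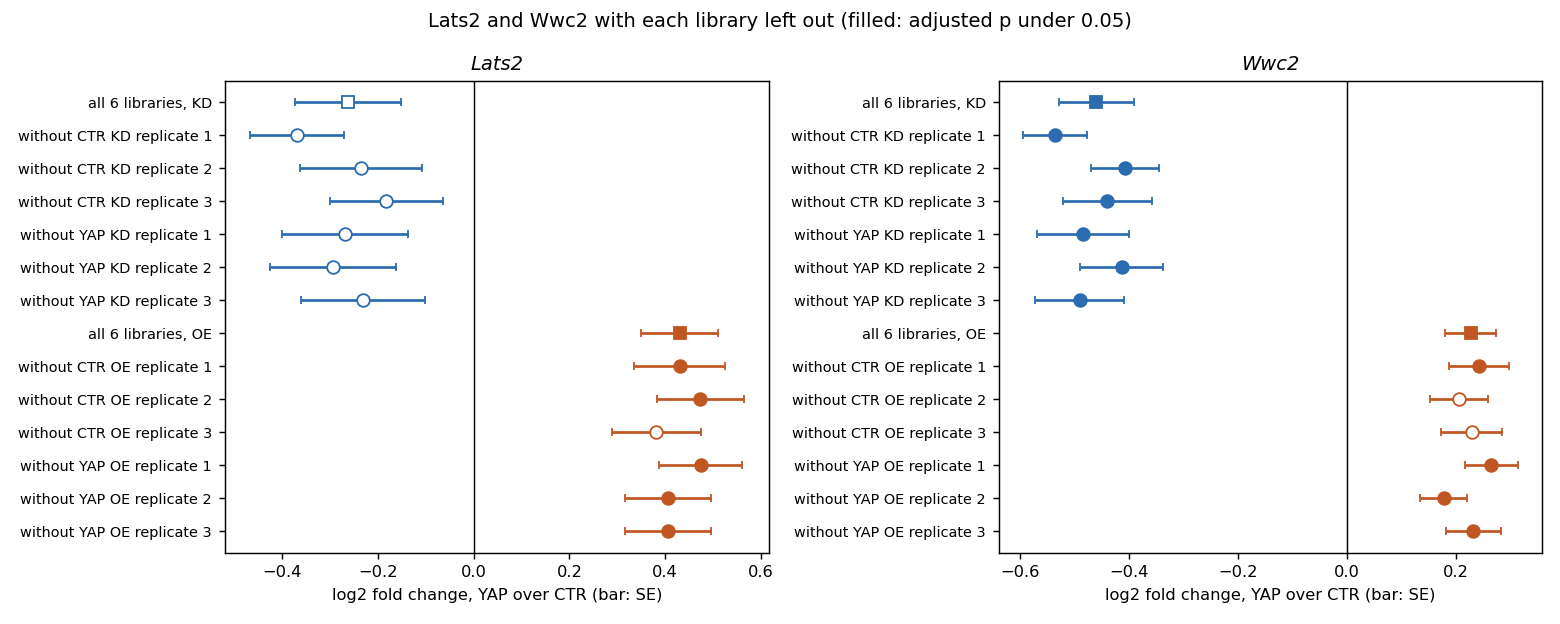
Log2 fold change of YAP over CTR (x axis) for Lats2 (left) and Wwc2 (right) with all 6 libraries of an experiment (squares) and with each library left out in turn (circles, y axis); bars are SE, blue is YAP KD, orange is YAP OE and filled symbols have an edgeR adjusted p under 0.05. Wwc2 in YAP KD stayed filled throughout between -0.54 and -0.41, whereas Lats2 in YAP OE turned open without CTR OE replicate 3 and Wwc2 in YAP OE turned open without CTR OE replicates 2 or 3.

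Wwc1, the gene for KIBRA, gave 22.0, 27.8 and 25.4 CPM in CTR KD and 24.6, 22.1 and 22.8 CPM in YAP KD, and these overlapped. In CTR OE it stood at 28.2, 25.8 and 26.7 CPM and in YAP OE at 28.3, 30.4 and 31.6 CPM, with all YAP libraries above the controls, replicate 1 by a very small margin. The log2 fold changes were -0.12 (95% interval -0.30 to 0.065, edgeR adjusted p = 0.493) and 0.16 (0.05 to 0.27, edgeR adjusted p = 0.146). Nf2, the gene for merlin, was covered by 11425 to 15227 expected counts per library. Its log2 fold change was -0.05 in YAP KD (-0.14 to 0.037, edgeR adjusted p = 0.535) and 0.002 in YAP OE (-0.081 to 0.086, edgeR adjusted p = 0.990).

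Counted over the 10 genes, 3 lay wholly below their controls in YAP KD (Sav1, Mob1b and Wwc2), where 12.9% of all genes did, and 0 lay wholly above (12.8% of all genes). In YAP OE 3 lay wholly above their controls (Lats2, Wwc1 and Wwc2), where 10.3% of all genes did, and 0 lay wholly below (7.9% of all genes). Wwc2 was the gene common to both sets. CTR KD replicate 1 was the lowest of its group for Yap1 as well as for Lats2, Wwc1 and Wwc2, and the Wwc1 log2 fold change in YAP KD was -0.21 without it (edgeR adjusted p = 0.117) and -0.035 without CTR KD replicate 2 (edgeR adjusted p = 0.820).

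The effects of raising and of lowering YAP were then compared directly, in 1 fit over the 12 libraries, as the log2 effect in YAP OE minus the log2 effect in YAP KD. This difference was positive and passed the test for Lats2, at 0.70 (SE 0.135, 95% interval 0.41 to 0.98, edgeR adjusted p = 0.00422), and for Wwc2, at 0.69 (SE 0.0897, 0.50 to 0.88, edgeR adjusted p = 0.000201). Over all 15049 genes tested 5.24% were called in this direction, 3.56% in the other and 8.8% in either. Both calls held in all 12 fits that left out 1 library. Wwc1 followed at 0.28 (SE 0.103, edgeR adjusted p = 0.111) and Sav1 at 0.20 (SE 0.0727, edgeR adjusted p = 0.110), and neither passed. Over the fits without 1 library the Wwc1 difference ran from 0.20 without CTR KD replicate 2 (edgeR adjusted p = 0.193) to 0.37 without CTR KD replicate 1 (edgeR adjusted p = 0.0151), and passed in the latter fit alone. The other 6 differences lay from -0.008 for Stk4 to 0.13 for Mob1b. A gene that follows YAP in both experiments has a positive difference, as Yap1 itself did at 2.11.

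Because 8 of the 10 genes form 4 pairs of paralogs with like function, the balance within each pair was taken from every library. LATS2 and LATS1 phosphorylate the same sites of YAP. Lats2 made up 23.5% ± 2.60 (SD, n = 3) of the Lats1 and Lats2 transcripts per kilobase in CTR KD, 19.2% ± 1.14 in YAP KD, 27.8% ± 0.809 in CTR OE and 32.5% ± 1.41 in YAP OE. The log2 ratio of Lats2 to Lats1 changed by -0.36 in the knockdown (pooled SD 0.168) and by 0.32 in the overexpression (pooled SD 0.0773), with no overlap of groups in either. Without division by length, the changes were -0.22 and 0.37, and the knockdown groups overlapped (exact permutation p = 0.3). Lats1 thus remained the more abundant LATS transcript in all groups.

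Wwc2 made up 55.5% ± 0.792 of the Wwc1 and Wwc2 transcripts per kilobase in CTR KD and 49.5% ± 1.11 in YAP KD, a change of the log2 ratio by -0.35 (pooled SD 0.0560) with no overlap. In the overexpression the share was 54.0% ± 0.610 and 55.1% ± 1.47, with a change of 0.06 (pooled SD 0.0654) and overlapping groups. The pair was therefore shifted toward Wwc1 in YAP KD, while in YAP OE Wwc1 and Wwc2 both had positive log2 fold changes. Mob1b made up 7.28% ± 0.161 of its pair in CTR KD, 6.27% ± 0.460 in YAP KD, 7.43% ± 0.172 in CTR OE and 6.78% ± 0.290 in YAP OE, lower than the control in both experiments and without overlap. The share of Stk3 in its pair, between 23.9% and 25.0%, overlapped throughout.

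Exact permutation tests (two-sided, 3 against 3 libraries) gave p = 0.1, the smallest this design allows, for the 5 ratios whose groups did not overlap (exact, adjusted p = 0.16 over 8 tests). For the other 3 ratios the exact p was 0.3 or 0.6. None of the 8 could have passed 0.05, so the shares stand as descriptions.

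**Figure D4:**
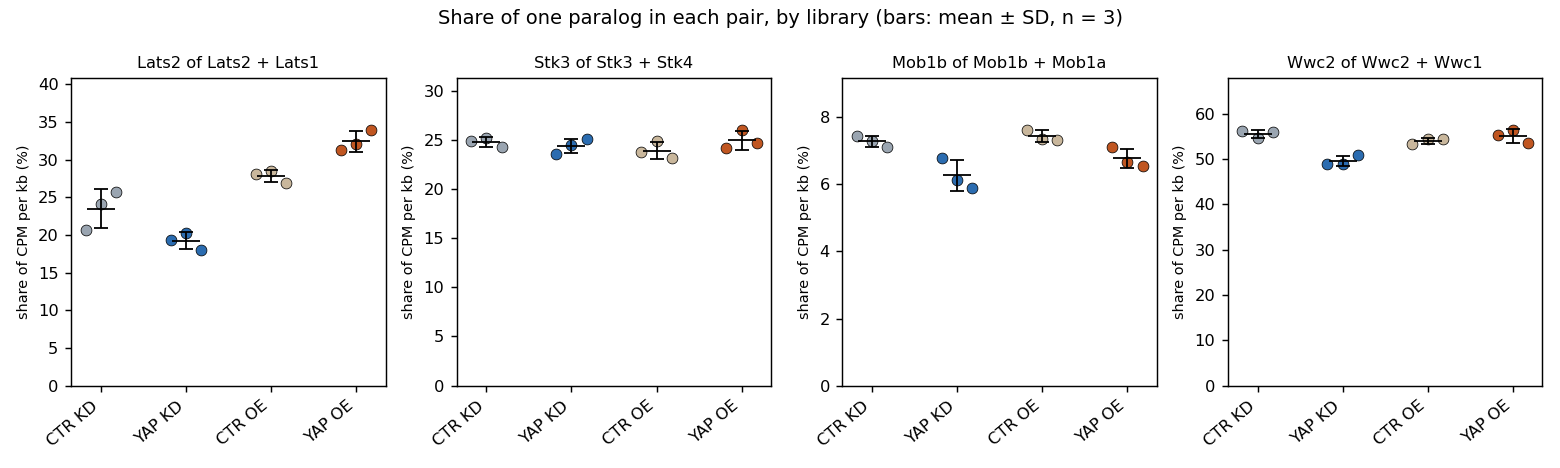
Share of one paralog in its pair in percent of CPM per kilobase (y axis, linear and from 0) for Lats2, Stk3, Mob1b and Wwc2 in the 4 groups (x axis); points are libraries and bars the mean ± SD of 3. The Lats2 share was 19.2% in YAP KD and 32.5% in YAP OE, the mean Wwc2 share was under 50% in YAP KD alone, at 49.5%, and Mob1b was lower than its control in both experiments.

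Lats2 was also 1 of 2 members with several annotated transcripts, 2 for Lats2 and 5 for Nf2. Its abundance-weighted mean transcript length, an estimate of the mix of these transcripts, was 4642 ± 127 bases in CTR KD and 5098 ± 161 in YAP KD, and 4719 ± 34.6 in CTR OE and 4903 ± 120 in YAP OE (SD, n = 3). YAP libraries gave the longer estimate in both experiments without overlap, by 456 and 184 bases. Neither passed over all genes with several transcripts (limma adjusted p = 0.752 and 0.913; 0% of 4294 and 0.023% of 4351 genes passed). With effective length as an offset the Lats2 log2 fold change in YAP KD was -0.40 (edgeR adjusted p = 0.0878), more than 1.5 times its value without the offset. In YAP OE the offset made the Lats2 value smaller, at 0.38 (edgeR adjusted p = 0.0215) beside 0.43 without it. For Nf2 the length differed by 59.6 bases in the knockdown and by -49.2 bases in the overexpression (limma adjusted p = 0.961 and 0.996).

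Another 47 genes that act on the cascade were read from the same fits, of which 46 were tested in each experiment. In YAP KD 2 rose and 5 fell, 15.2% of those tested beside 5.49% of all genes, with a median log2 fold change of -0.0088. In YAP OE 2 rose and 0 fell, 4.35% beside 2.13%, with a median of 0.015. Changes in YAP KD were found among apical and polarity proteins, upstream kinases and LATS inhibitors. None of the 12 genes of the STRIPAK complex, a phosphatase assembly that acts against the MST kinases, passed in either experiment by edgeR, and 0 of them had an unadjusted p under 0.05. The NDR kinases (2 genes), the RASSF adaptors (6), the E3 ligases of LATS (3) and the atypical cadherins (2 tested) also had 0 edgeR calls in both, with 1 of these 13 genes at an unadjusted p under 0.05 in YAP KD and 2 in YAP OE. The gene in YAP KD was Rassf6, near the threshold at a log2 fold change of -0.72 (edgeR adjusted p = 0.0521). Rassf6 was called there with upper-quartile factors, with no filter, in the fit over 12 libraries and without CTR KD replicate 2.

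Of 8 apical and polarity genes, 3 fell in YAP KD and 2 of these 3 rose in YAP OE. Inadl, which encodes the Crumbs complex protein PATJ, fell from a control level of 21.3 ± 1.55 CPM to 12.5 ± 0.337 CPM in YAP KD, by 0.76 on the log2 scale (SE 0.0638, edgeR adjusted p = 0.000221), and rose by 0.27 in YAP OE (SE 0.0466, edgeR adjusted p = 0.00544). Frmd6, a relative of merlin that acts upstream of the kinases, fell by 0.31 on the log2 scale in YAP KD (SE 0.0521, edgeR adjusted p = 0.00876) and rose by 0.25 in YAP OE (SE 0.0557, edgeR adjusted p = 0.0314). The Frmd6 calls were less firm: that in YAP KD was lost without YAP KD replicate 2 (-0.29, edgeR adjusted p = 0.0573), and that in YAP OE without any of the 3 CTR OE libraries or without YAP OE replicates 2 or 3, where values lay from 0.21 to 0.27. Crb3, a Crumbs protein of the apical membrane, fell from 13.7 ± 1.08 to 10.1 ± 0.0781 CPM in YAP KD (-0.44, SE 0.0684, edgeR adjusted p = 0.00681).

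Ajuba, whose LIM protein binds and inhibits LATS, also fell in YAP KD, with 135.3 ± 8.58 CPM in the controls and 99.6 ± 4.41 CPM left (-0.44 on the log2 scale, SE 0.0541, edgeR adjusted p = 0.00229). Among the MAP4K-type kinases, which can phosphorylate LATS in place of MST, the direction was mixed. Tnik rose from 4.99 ± 0.316 to 8.97 ± 0.765 CPM in YAP KD (0.85 on the log2 scale, SE 0.0871, edgeR adjusted p = 0.000856). Map4k3 fell by 0.21 on the log2 scale (SE 0.0427, edgeR adjusted p = 0.0198) and Map4k4 rose by 0.14 (SE 0.0360, edgeR adjusted p = 0.0491). The Map4k3 call was lost without CTR KD replicate 3 or any 1 of the YAP KD libraries, and the Map4k4 call without any library but CTR KD replicate 2 and in all but 3 of 8 other alternatives. In YAP OE Ajuba, Crb3, Tnik, Map4k3 and Map4k4 did not pass the edgeR test, and the largest value of these, that of Tnik, was -0.36 (edgeR adjusted p = 0.0879). Genes whose products activate the cascade and genes whose products inhibit it were thus both among those that fell.

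**Figure D5:**
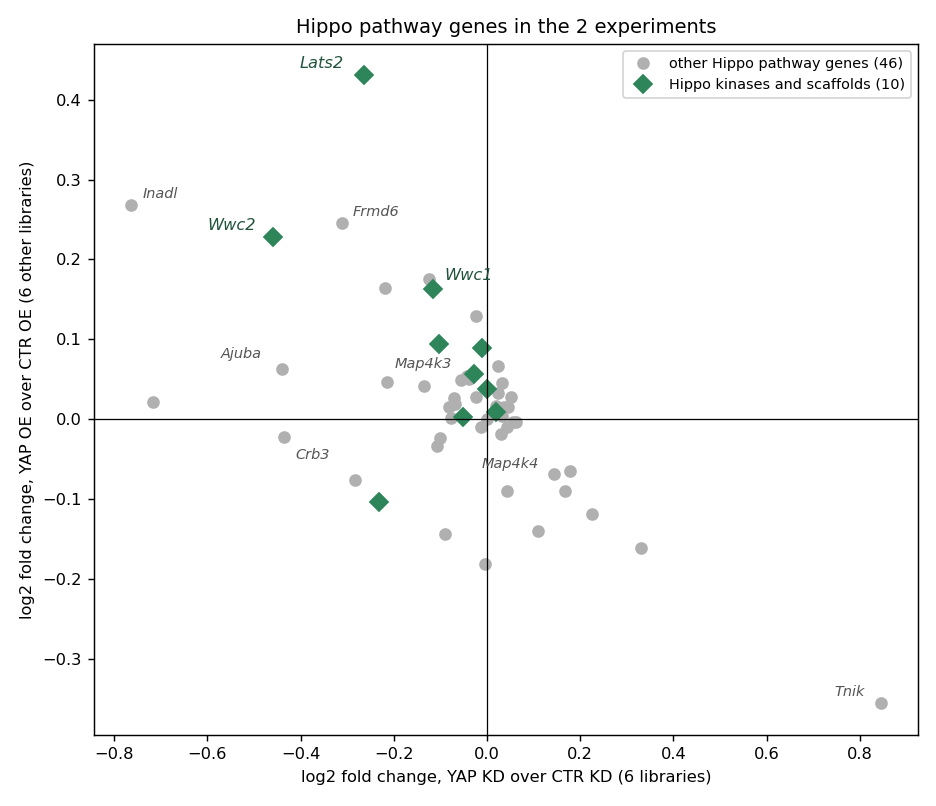
Log2 fold change in YAP KD over CTR KD (x axis) and in YAP OE over CTR OE (y axis) for the 10 Hippo kinase and scaffold genes (green diamonds) and 46 other genes of the pathway (grey circles), each axis from its own 6 libraries. Genes called in either experiment and Wwc1 carry their names; Wwc2 (-0.46, 0.23) lies on the side of Inadl (-0.76, 0.27) and Frmd6 (-0.31, 0.25), and Tnik (0.85 in YAP KD) at the opposite corner.

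In the direct comparison of the 2 effects, 10 of the 47 pathway genes passed (21.3% beside 8.8% of all genes), 6 with a higher and 4 with a lower effect in YAP OE. These were the 7 named above and Taok2 (-0.25, edgeR adjusted p = 0.0134), Map4k2 (-0.34, edgeR adjusted p = 0.0238) and Rassf1 (0.30, edgeR adjusted p = 0.0323). TAOK2 phosphorylates MST, MAP4K2 phosphorylates LATS and RASSF1 binds MST. Several of these calls depended on single libraries: of 12 fits without 1 library, the Rassf1 call was lost in 9 and held only without CTR KD, YAP KD or YAP OE replicate 1. The Map4k2 call was lost in 5, without CTR KD replicate 3, YAP KD replicate 2, CTR OE replicates 1 or 3 or YAP OE replicate 1. The Crb3 call was lost in 3, without replicate 3 of YAP KD, CTR OE or YAP OE. Rassf1 and Map4k2 were also lost under DESeq2, and Rassf1 with no filter.

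The genes most like Lats2 and Wwc2 were sought over the 12 libraries among 12386 genes, by Pearson's correlation of log2(CPM + 0.5) after centring within each experiment. Since each experiment carries a contrast of YAP, in opposite directions, these values are a description. For Wwc2 they were Ppm1h, a protein phosphatase gene (r = 0.971), Zmynd8, a chromatin reader gene (0.971), and Ttc12 (0.971). All of these were called in YAP KD but none in YAP OE (edgeR adjusted p = 0.105, 0.321 and 0.458). For Lats2 they were Cald1, which encodes the actin binder caldesmon (0.936), the septin gene Sept10 (0.936) and Emp1, an epithelial membrane protein gene (0.931). Like Lats2, these were called in YAP OE but not in YAP KD (edgeR adjusted p = 0.1025, 0.435 and 0.703 in YAP KD). On the same measure r with Yap1 was 0.912 for Wwc2 and 0.822 for Lats2. Each library's depth and the plasmid or siRNA delivered are shared by all of these genes.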

How the data were processed

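Per the labels and the study's methods, the authors aligned reads with STAR to mm10 and assigned them to RefSeq genes with RSEM; versions and strand setting are not given in the sources used here. The deposited expected counts are not normalized. All 10 genes had whole expected counts in all 12 libraries, so none of their reads was divided between genes. The deposited TPM and FPKM values of the authors were not tested, and the deposited length columns gave effective length.

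Expected counts were rounded and fitted with edgeR 4.0.16 in R 4.3.3 (filterByExpr, TMM, quasi-likelihood F test, two-sided) on the 6 libraries of each experiment, with Benjamini-Hochberg adjustment over all genes kept and a threshold of 0.05. The SE is the absolute log2 fold change over the square root of F. The difference of effects used all 12 libraries. CPM values used TMM factors over the 12. Transcript length was fitted with limma 3.58.1. Scripts were tested on simulated data.

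The members and lists were chosen with earlier results of these data known. Text names all members, Yap1, Ctgf, Cyr61, Amotl2, every called pathway gene and the 3 genes most like each called member (mean of at least 50 counts). Taok2, Map4k2, Rassf1 and Rassf6 were named after their values were seen. No library was a copy of another: within a group, chi-square over df ran from 3.39 to 24.2. Alternatives were other scaling factors, no filter beyond 1 count, DESeq2 1.42.0, limma-voom, a length offset, a replicate block, 1 fit over 12 libraries and leaving out each library.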

Additional observations from a re-analysis of the deposited data

Results flagged for a closer look

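The difference of the log2 effects, YAP OE minus YAP KD, passed a test of its own for 2 of the 10 genes, where 8.8% of all 15049 genes passed. The 2 experiments moved YAP in opposite directions, so a gene that follows YAP in both has a positive difference, as Yap1 did at 2.11. For Lats2 the log2 effect in YAP OE minus that in YAP KD was 0.70 (SE 0.135, edgeR adjusted p = 0.00422), from effects of 0.43 and -0.26, of which the first alone passed its own test. For Wwc2 it was 0.69 (SE 0.0897, edgeR adjusted p = 0.000201), from effects of 0.23 and -0.46, both of which passed.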

How the results depend on the processing

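Among the 10 genes, 1 was called in YAP KD under all alternatives, and Wwc2 kept that call in all 6 fits without 1 library and in all 8 other alternatives (edgeR adjusted p up to 0.0499). In YAP OE 2 were called, but 1 (Lats2) in the fit over 12 libraries, where Wwc2 had 0.23 (edgeR adjusted p = 0.0891), and from 0 to 2 when single libraries were left out (0 without CTR OE replicate 3, 1 without CTR OE replicate 2). The difference of effects had 2 calls throughout, except 3 without CTR KD replicate 1, so its range was 2 to 3. The cause was not tested. Scaling factors moved the median of all genes by at most 0.0143.

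Deviations from the group mean correlated from -0.42 to 0.0898 between YAP and control libraries of the same replicate number. Between different numbers they correlated from -0.172 to 0.446. With 3 libraries per group, these values cannot settle whether the replicate numbers pair the libraries. With the number as a block, genes called over the whole table went from 802 to 193 in YAP KD, from 316 to 280 in YAP OE and from 1325 to 784 for the difference, while the 10 genes kept 1, 2 and 2 calls. Among the other pathway genes the block left 4 of 7 in YAP KD and 6 of 10 for the difference, where Map4k2, Map4k4, Rassf1 and Crb3 were lost. Leaving out 1 library gave 4 to 9 in YAP KD, 1 to 2 in YAP OE and 7 to 11 for the difference.

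Signs changed only for values near 0, none of them called. When single libraries were left out, Stk3 in YAP KD ran from -0.041 to 0.029, Stk4 from -2.92e-05 to 0.031, Mob1a from -0.057 to 0.037 and Cyr61 from -0.19 to 0.090. In YAP OE, Stk4 ran from -0.0069 to 0.029, Nf2 from -0.019 to 0.016 and Crb3 from -0.12 to 0.042, the Nf2 length change ran from -84.1 to 1.14 bases, and the Stk4 difference of effects from -0.024 to 0.0087. Mob1a in YAP KD was 0.0023 under limma-voom and 0.0035 with the length offset. Nf2 in YAP OE was -0.00072 with relative log expression factors, -9.55e-05 with no filter and -0.00078 under DESeq2, and the Stk4 difference was 0.0057 with upper-quartile factors. Depth limits Lats2 and Mob1b most, at 159 to 432 and 255 to 358 expected counts per library.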
